A study of Mus musculus with 6 samples.

Results

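The 33 genes described here encode the enzymes and core subunits that write, read and remove chromatin marks: Polycomb proteins, histone methyltransferases and demethylases, DNA methyltransferases and TET dioxygenases, histone deacetylases and acetyltransferases, and 1 chromatin remodeller. They were taken from a list of names and looked up by symbol in a gene count table of 23284 rows. All 33 were found, with Kmt2a, Kmt2d and Kmt2c under their older symbols Mll1, Mll2 and Mll3, and all 33 passed the filter on low counts. Because Kmt2b has a row of its own under the symbol Wbp7, Mll2 was read as Kmt2d. RNA was sequenced from the isolated esophageal epithelium of mouse embryos at E12.5. The p63KO group (3 libraries) was homozygous for Trp63-CreERT2, a Cre knock-in allele at Trp63 that the submitters describe as a Trp63 knockout, and the control group (3 libraries) came from littermates whose titles call them WT. Trp63 encodes p63, a transcription factor required for stratified squamous epithelium. The sources used here give neither the strain, nor how many embryos went into a library, nor the alleles of each control littermate. The p-values therefore speak of the spread among these 6 libraries, which may be partly technical.

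Polycomb repressive complex 2 (PRC2) places methyl groups on lysine 27 of histone H3, and Polycomb repressive complex 1 (PRC1) reads that mark and adds ubiquitin to histone H2A. In dividing cells DNMT1 and its partner UHRF1 copy DNA methylation onto the new strand, DNMT3A and DNMT3B place it on unmethylated sites, and TET enzymes oxidise it. These enzymes act on many loci at once and are known for holding developmental genes silent or poised while epithelial cells commit to a fate.

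Libraries held 13335328 to 16506401 counts in the p63KO group and 16948971 to 20093838 in controls, and 13849 genes were tested. Trp63 had 76.7, 62.2 and 75.4 CPM (counts scaled to library size) in the p63KO libraries and 584, 674 and 551 CPM in controls. The leading principal component (78.4% of the variance) separated the groups, and the next (8.43%) set control replicate 3 apart. Without that library 6 of the 33 genes were again called, with Ezh1 in and Kdm1a out. The 6 epithelial markers were present in every library and summed to 3604 to 3706 CPM in p63KO and 3335 to 3572 CPM in control libraries, ranges that did not overlap; 3 of the 6 rose and 1 fell. Markers of other cells also differed. The 6 neuroendocrine markers summed to 273 to 334 CPM in p63KO and 1.28 to 2.65 CPM in control epithelium, and all 6 rose; in each control library 1 of them was at 0. The 6 neuronal and neural crest markers summed to 149 to 186 CPM in p63KO and 14.0 to 21.3 CPM in controls, and 3 of them rose. Of the 6, 2 had log2 fold changes below 0, down to -1.34, and did not pass the test. For mesenchyme the sum of 10 markers was 291 to 443 CPM in p63KO and 372 to 556 CPM in controls, with 5 lower and 1 higher. By the same test, given below, 15.3% of all genes tested were higher and 14.3% lower. Endothelial (5 genes), blood (5 genes) and muscle (5 genes) markers summed to at most 38.7 CPM in any library. In bulk RNA, fewer cells of a type and less RNA per cell cannot be told apart, and the part of these cell types in the values below was not tested.

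The transcripts of most of these enzymes differed little between p63KO and control epithelium. Among the 33 genes, 6 passed the test (18.2%; edgeR's quasi-likelihood test, Benjamini-Hochberg adjusted p under 0.05), against 29.6% of all genes tested. Dnmt3b, Dnmt3a, Tet1, Jarid2 and Kdm1a were higher in p63KO epithelium, 5 genes against 15.3% of all genes in that direction, and Uhrf1 was lower, 1 gene against 14.3%. The log2 fold changes ran between -0.46 and 0.41, so that no gene reached a 2-fold difference, which 13.0% of all genes did. The median size of the log2 fold change was 0.12 over the 33 genes, 0.20 over all genes tested and 0.16 over the 10114 genes within the same range of mean CPM. The p63KO and control libraries did not overlap for 8 of the 33 genes, against 44.1% of all genes and 44.5% of genes within that CPM range. In the same range 7.11% of genes differed 2-fold or more. DESeq2 and limma-voom each called the same 6 genes, and at an unadjusted p under 0.05 edgeR had 10. Of the 7 genes of DNA methylation and demethylation 4 changed, and of the other 26 genes 2 changed.

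**Figure D1:**
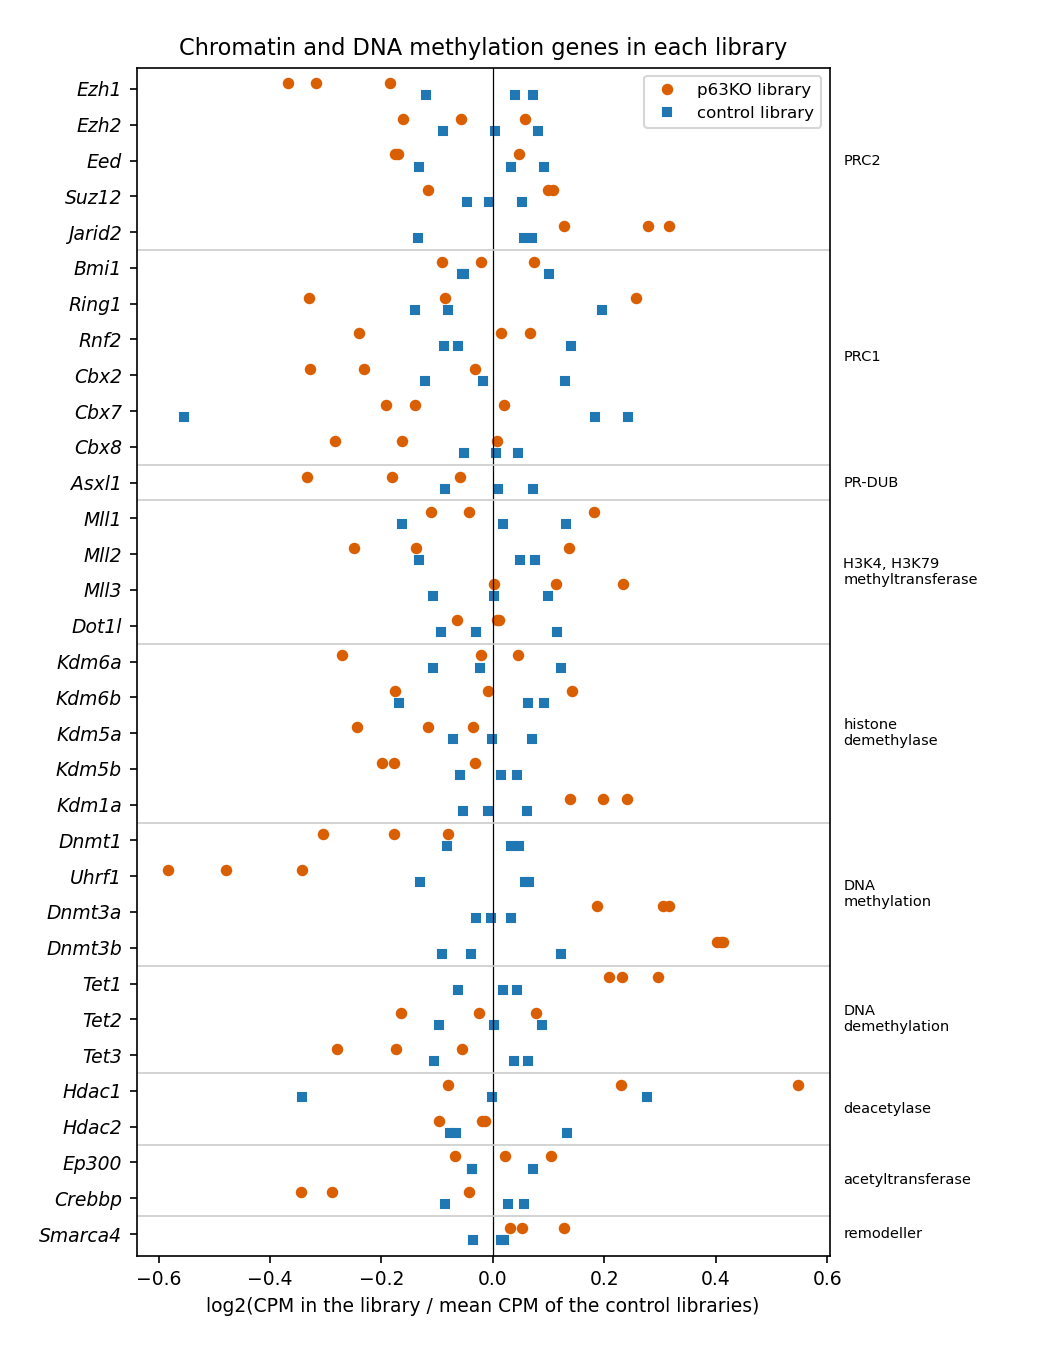
Level of each of the 33 genes in each library, as log2 of its CPM over the mean CPM of the 3 control libraries, with p63KO libraries as circles and control libraries as squares. Uhrf1 lies left of zero and Dnmt3a, Dnmt3b, Tet1, Jarid2 and Kdm1a lie right of it in all 3 p63KO libraries, while most other rows intermix.

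Uhrf1, whose protein binds hemimethylated DNA and recruits DNMT1 to it, had the largest difference of the 33. It had 215, 254 and 231 CPM in the p63KO libraries and 294, 337 and 335 CPM in controls. Every p63KO library lay below every control library. The means were 234 ± 19.7 CPM in p63KO and 322 ± 24.3 CPM in controls (SD, n = 3 each), a log2 fold change of -0.46 (SE 0.08, edgeR adjusted p = 0.0022). Of its longest transcript, 44.3% has a copy at 95% identity or more in a processed pseudogene, so its counts could have been split with that copy. Dnmt1, the maintenance methyltransferase itself, had 390.0, 455 and 426 CPM in p63KO and 455, 498 and 492 CPM in controls. Its groups overlapped narrowly, with p63KO replicate 2 at 455.3 CPM and control replicate 1 at 455.0 CPM. Its log2 fold change of -0.19 (SE 0.07) did not pass the test (edgeR adjusted p = 0.092), with a 95% interval of -0.35 to -0.02. It passed in an edgeR fit with the replicate number as a block (adjusted p = 0.026).

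The de novo methyltransferases moved the other way. Dnmt3a had 415, 419 and 383 CPM in p63KO and 344, 335 and 329 CPM in control libraries, with no overlap. Its log2 fold change was 0.27 (SE 0.06, edgeR adjusted p = 0.0083). Dnmt3b, the second de novo enzyme, had 35.8, 36.0 and 36.1 CPM in p63KO and 25.5, 29.5 and 26.4 CPM in controls. The 3 p63KO libraries were nearly equal and all above the controls, and the log2 fold change was 0.41 (SE 0.09, edgeR adjusted p = 0.0073). Uhrf1, Dnmt3a and Dnmt3b stayed past the threshold under every alternative setting tried and with each library left out.

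Among the TET genes, whose enzymes oxidise 5-methylcytosine as the first step of its removal, Tet1 changed. It had 55.1, 52.6 and 51.8 CPM in p63KO and 45.4, 42.9 and 46.2 CPM in control libraries, with no overlap, and a log2 fold change of 0.25 (SE 0.07, edgeR adjusted p = 0.023). That call was lost without p63KO replicate 1 (edgeR adjusted p = 0.072), without control replicate 1 (0.060) and without control replicate 2 (0.089). Tet3 had 322, 375 and 346 CPM in p63KO and 407, 400.5 and 363 CPM in controls, and its log2 fold change of -0.17 (95% interval -0.34 to 0.004) did not pass. Tet2 had a log2 fold change of -0.03 (SE 0.08) and overlapped throughout.

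Levels of different genes can be set side by side only per length, here as CPM per kb of annotated exon in GENCODE M21, which approximates the annotation behind the counts. On that scale the level of Uhrf1 was 63.7 ± 5.37 in p63KO and 87.9 ± 6.62 in control epithelium, and that of Dnmt1 was 67.2 ± 5.19 in p63KO and 76.4 ± 3.68 in controls (SD, n = 3 each). In p63KO epithelium these means differed by less than the SD of either gene. The pseudogene copy of 44.3% of the Uhrf1 transcript could lower the level of Uhrf1, while Dnmt1 has no such copy (0%). Exon lengths were merged over the protein-coding transcripts of a gene, which lowers the level of genes with many of them. That SD is a spread between libraries and does not compare the genes within a library, for which their ratio is given below. Dnmt3a followed with 40.9 ± 2.0 in p63KO and 33.9 ± 0.743 in controls, then Tet3 with 29.6 ± 2.30 in p63KO and 33.2 ± 2.04 in controls. In control epithelium the means of Dnmt3a and Tet3 differed by less than the SD of Tet3 between libraries. Dnmt3b was at 8.32 ± 0.032 in p63KO and 6.27 ± 0.493 in controls, and Tet2 at 6.09 ± 0.508 in p63KO and 6.23 ± 0.397 in controls. Tet1 had the lowest level of the 7 genes in both groups, 3.70 ± 0.117 in p63KO and 3.12 ± 0.12 in controls.

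**Figure D2:**
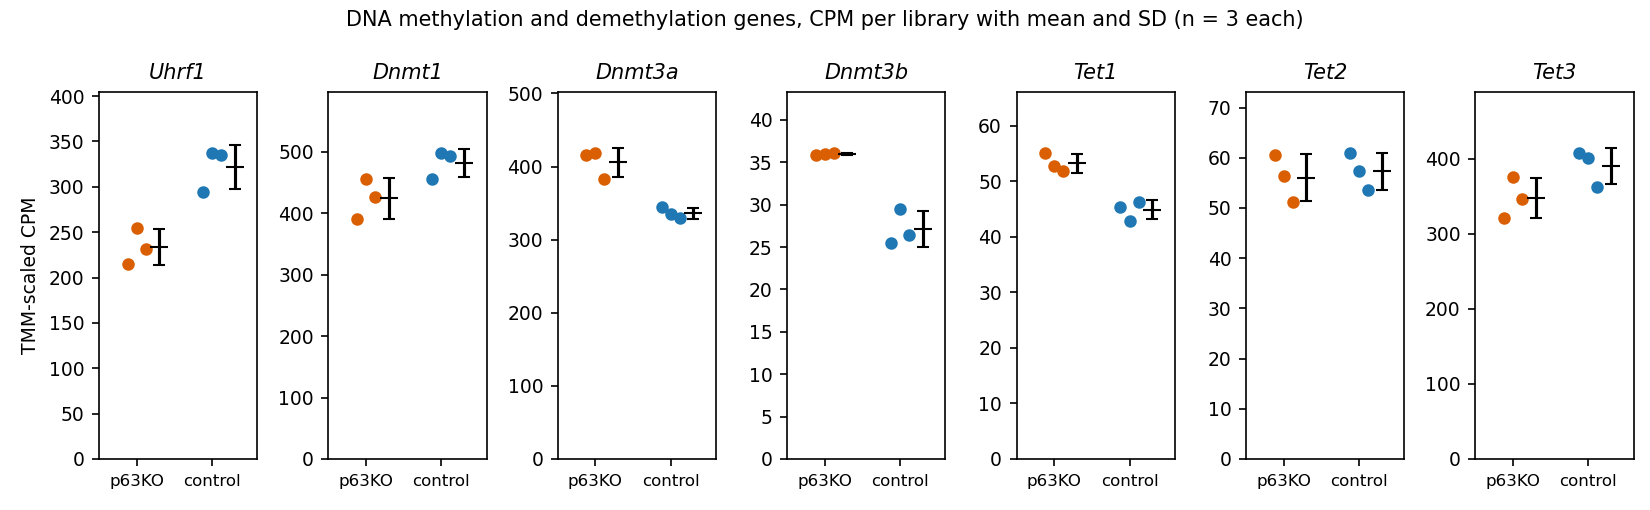
CPM of the 7 genes of DNA methylation and demethylation in each library, p63KO left of control in every panel, with bars for the mean and SD of 3 libraries and a linear axis from zero for each gene. The groups are apart for Uhrf1, Dnmt3a, Dnmt3b and Tet1 and overlap for Tet2, Tet3 and, narrowly, Dnmt1.

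Ratios within a library do not depend on its scaling. The ratio of Uhrf1 to Dnmt1 CPM was 0.552, 0.558 and 0.543 in p63KO libraries and 0.647, 0.678 and 0.681 in controls. Uhrf1 was lower relative to its partner in every p63KO library. The ratio of Dnmt3a to Dnmt1 was 1.07, 0.919 and 0.899 in p63KO and 0.756, 0.674 and 0.669 in controls, and that of Dnmt3b to Dnmt1 was 0.0919, 0.0791 and 0.0847 in p63KO and 0.0559, 0.0593 and 0.0536 in controls. The ratio of Dnmt3a to Dnmt3b overlapped between the groups, at 10.6 to 11.6 in p63KO and 11.4 to 13.5 in controls. Tet1 relative to Tet3 was 0.171, 0.140 and 0.150 in p63KO and 0.111, 0.107 and 0.127 in controls. Of 10 such ratios computed, 7 had groups that did not overlap. Each of these had a two-sided exact permutation p = 0.1, the smallest that 3 against 3 libraries allow (0.143 adjusted over the 10). The pairs were chosen with results of these data known, and all of the 7 but Ep300 to Crebbp hold a gene called above. The count therefore adds no support to those calls, and no such share was computed over all pairs of genes.

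The upstream sequences of Uhrf1 and Dnmt3b are shown because these genes had the largest differences in the lower and the higher direction. RefSeq promoter windows were at hand for 29 of the 33 genes, on build GRCm38.p6, and 250 bases upstream of each annotated start were searched. They are the 2nd annotated start of Uhrf1 at chr17:56304063-56304312 on the plus strand and the start of Dnmt3b at chr2:153649199-153649448 on the plus strand, written 5′ to 3′. The other Uhrf1 window, at chr17:56303087-56303336, held 0 E2F-type motifs and 10 CpG dinucleotides and is not shown. Capitals mark letters of an E2F-type motif.
Uhrf1: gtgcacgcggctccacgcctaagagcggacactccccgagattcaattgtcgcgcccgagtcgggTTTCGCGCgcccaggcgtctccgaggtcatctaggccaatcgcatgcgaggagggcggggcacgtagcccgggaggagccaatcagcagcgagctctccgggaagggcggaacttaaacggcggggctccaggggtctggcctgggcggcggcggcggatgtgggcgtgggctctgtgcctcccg
Dnmt3b: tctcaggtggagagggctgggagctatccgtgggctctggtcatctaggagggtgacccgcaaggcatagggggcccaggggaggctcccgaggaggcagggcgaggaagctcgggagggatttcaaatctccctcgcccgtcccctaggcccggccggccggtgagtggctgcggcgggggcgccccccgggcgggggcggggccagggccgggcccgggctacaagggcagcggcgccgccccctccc
The E2F-type letters searched were TTTCCCGC, TTTGGCGC, TTTCGCGC and TTTGCCGC on both strands. They occurred in 3 of 35 windows of the 29 genes (8.57%), which were 1 of 2 windows of Uhrf1 (the one shown), 1 of 3 windows of Dnmt1 and the window of Suz12, and in 611 of 32851 windows of all genes (1.86%). A p63-type motif, a pair of CATG, CAAG or CTTG separated by any 6 bases, occurred in 0 of the 35 windows and in 3.85% of all windows. The windows of the 29 genes held a median of 23 CpG dinucleotides, against 6 over all windows. Every E2F-type word searched contains a CpG, so the shares of 8.57% and 1.86% are not a like comparison. No share over windows of like CpG content was computed. A match here is a description of letters and not of binding.

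Uhrf1 is also known as an S-phase gene, and a list of 30 replication and division genes was read beside it. None of the 30 rose by edgeR, DESeq2 or limma-voom (1 did at an unadjusted p under 0.05), and 9 fell by edgeR (30.0%), against 14.3% of all genes tested. Their median log2 fold change was -0.13. Cdt1, which licenses origins, fell to 75.7 ± 2.67 CPM in p63KO, against 110.4 ± 6.02 CPM in controls (log2 fold change -0.54, SE 0.07, edgeR adjusted p = 0.00024). Chaf1a, a histone chaperone subunit that acts behind the fork, fell to 138 ± 9.58 CPM in p63KO, against 175 ± 10.5 CPM in controls (-0.35, edgeR adjusted p = 0.0062). Mcm4, a replicative helicase subunit, had a log2 fold change of -0.29 (edgeR adjusted p = 0.020). Of these 9 calls, Cdt1 and Chaf1a held with each library left out in turn. The ratio of Uhrf1 to Pcna, the replication clamp, was 2.42, 2.39 and 2.30 in p63KO and 2.84, 2.77 and 2.68 in control libraries, again without overlap. No other replication gene was taken as a reference, and the log2 fold change of Cdt1 (-0.54) was larger in size than that of Uhrf1 (-0.46). The part of cell division in the level of Uhrf1 was not tested.

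Of the 12 Polycomb genes, Jarid2 rose (8.33%, against 15.3% of all genes tested) and the other 11 did not pass the test. Among the PRC2 core subunits, the catalytic Ezh2 had 196, 228 and 211 CPM in p63KO and 206, 232 and 220.0 CPM in controls, with a log2 fold change of -0.05 (95% interval -0.22 to 0.12). Suz12, the scaffold, had a log2 fold change of 0.03 (SE 0.07), and Eed, which binds the methylated lysine, one of -0.10 (SE 0.09). Eed shares 12.6% of its exon bases with a gene on the opposite strand, and the strand setting of the counting is not given.

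Jarid2, a DNA-binding cofactor that recruits PRC2, had 171, 190.3 and 195 CPM in p63KO and 163, 143 and 165 CPM in control libraries. All p63KO libraries were above all controls, with a log2 fold change of 0.24 (SE 0.08, edgeR adjusted p = 0.043). The call was lost without p63KO replicate 2 (edgeR adjusted p = 0.09), p63KO replicate 3 (0.15), control replicate 1 (0.062) or control replicate 2 (0.14). Relative to Ezh2 in the same library, Jarid2 was at 0.873, 0.833 and 0.926 in p63KO and 0.790, 0.615 and 0.749 in controls. Ezh1, the less active paralogue of Ezh2, had 28.1, 25.6 and 24.7 CPM in p63KO and 32.8, 33.6 and 29.4 CPM in controls. Its groups did not overlap either, but the log2 fold change of -0.29 (SE 0.10) fell short of the threshold (edgeR adjusted p = 0.051). It passed without p63KO replicate 1 (edgeR adjusted p = 0.048) or control replicate 3 (0.038), and with the replicate number as a block (0.033). Per kb of exon, the level of Ezh2 was 75.6 ± 5.74 in p63KO and 78.3 ± 4.61 in controls, and that of Ezh1 was 4.30 ± 0.286 in p63KO and 5.25 ± 0.366 in controls.

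None of the 6 PRC1 genes passed edgeR's test, with 0 at an unadjusted p under 0.05 and 0 by DESeq2 or limma-voom, and all 6 log2 fold changes were below 0. In an edgeR fit with the replicate number as a block, Cbx2 passed (adjusted p = 0.030). Cbx2, a chromodomain subunit, had the lowest p of them, with 175, 215 and 187 CPM in p63KO and 217, 240.4 and 202 CPM in controls, overlapping, and a log2 fold change of -0.19 (SE 0.09, edgeR adjusted p = 0.15). The other chromodomain genes were Cbx7 at -0.10 (SE 0.22) and Cbx8 at -0.14 (SE 0.13). Cbx7 had 9.21, 8.24 and 7.95 CPM in p63KO and 10.7, 6.18 and 10.3 CPM in controls, with control replicate 2 the lowest of the 6, and a wide 95% interval of -0.60 to 0.40. Without control replicate 2 its log2 fold change was -0.31 (SE 0.17, edgeR adjusted p = 0.22), and over the libraries left out in turn it lay between -0.31 and 0.04. The ubiquitin ligase genes Rnf2 and Ring1 had log2 fold changes of -0.05 (SE 0.09) and -0.03 (SE 0.16), and their partner Bmi1 one of -0.01 (SE 0.07). For Bmi1, 73.9% of the longest transcript has a copy elsewhere in the genome at 95% identity or more, so its counts are uncertain. Asxl1, the cofactor of the H2A deubiquitinase complex PR-DUB, had 158, 142 and 172 CPM in p63KO and 181, 169 and 189 CPM in controls, and its log2 fold change of -0.19 (95% interval -0.37 to -0.01) did not pass. It did with the replicate number as a block (edgeR adjusted p = 0.021).

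None of the 4 methyltransferase genes of active chromatin passed edgeR's test, with 0 at an unadjusted p under 0.05 and 0 by DESeq2 or limma-voom. Mll3, which encodes an H3K4 methyltransferase of enhancers, had the lowest p, with 132, 155 and 143 CPM in p63KO and 141, 132 and 122 CPM in controls, overlapping (log2 fold change 0.12, SE 0.08). Its paralogues Mll1 and Mll2 had log2 fold changes of 0.01 (SE 0.10) and -0.07 (SE 0.10). Dot1l, the H3K79 methyltransferase, had one of -0.01 (SE 0.07).

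Of the 5 histone demethylase genes, Kdm1a rose. Kdm1a, which encodes the H3K4 demethylase of the CoREST complex, had 296, 284 and 305 CPM in p63KO and 248, 269 and 256 CPM in control libraries. The groups did not overlap, and the log2 fold change was 0.19 (SE 0.06, edgeR adjusted p = 0.036). It lost the call without p63KO replicate 1 (edgeR adjusted p = 0.077), p63KO replicate 3 (0.13), control replicate 1 (0.12) or control replicate 3 (0.087), and with no filter on low counts (0.054). The H3K27 demethylase genes did not pass: Kdm6a had a log2 fold change of -0.08 (SE 0.09) and Kdm6b one of -0.01 (SE 0.10). Kdm6a lies on the X chromosome and was lowest, at 100.4 CPM, in p63KO replicate 2. In that library the X-inactivation transcript Xist was at 1.59 CPM, against 514 CPM or more in each of the other 5. The Y-linked genes Kdm5d and Uty had counts in every library, at 24.5 to 76.1 and 17.2 to 61.3 CPM, and were highest in p63KO replicate 2. The other 5 libraries thus held both Xist and Y-linked transcripts and cannot be read as female. The part of embryo sex in the level of Kdm6a was not tested. The H3K4 demethylase genes Kdm5a and Kdm5b both had log2 fold changes of -0.13 (SE 0.07 each) and did not pass.

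Neither the 2 deacetylase genes, the 2 acetyltransferase genes nor the remodeller passed edgeR's test, and at an unadjusted p under 0.05 Crebbp alone of them did. Hdac1 had 19.7, 15.9 and 24.5 CPM in p63KO and 16.8, 13.2 and 20.3 CPM in controls, overlapping (log2 fold change 0.26, SE 0.19). With the replicate number as a block, Hdac1 had an SE of 0.09 and did not pass (edgeR adjusted p = 0.076). Because 71.1% of its longest transcript has near-identical copies elsewhere in the genome, its counts are uncertain; its paralogue Hdac2 had a log2 fold change of -0.04 (SE 0.07). Crebbp, an acetyltransferase and coactivator, had 93.8, 111 and 90.4 CPM in p63KO and 119, 117 and 108 CPM in controls. The groups overlapped in 1 library, and the log2 fold change of -0.22 (SE 0.09) did not pass (edgeR adjusted p = 0.092). It did without p63KO replicate 2 (edgeR adjusted p = 0.024) and with the replicate number as a block (0.035). Its paralogue Ep300 had one of 0.02 (SE 0.07), and the ratio of Ep300 to Crebbp was 2.22, 2.1 and 2.45 in p63KO and 1.78, 1.96 and 1.97 in controls. Smarca4, the ATPase of the SWI/SNF complex, had 591, 561 and 553 CPM in p63KO and 547, 549 and 528 CPM in controls. Its groups did not overlap, yet the log2 fold change was 0.07 (SE 0.06) and did not pass.

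**Figure D3:**
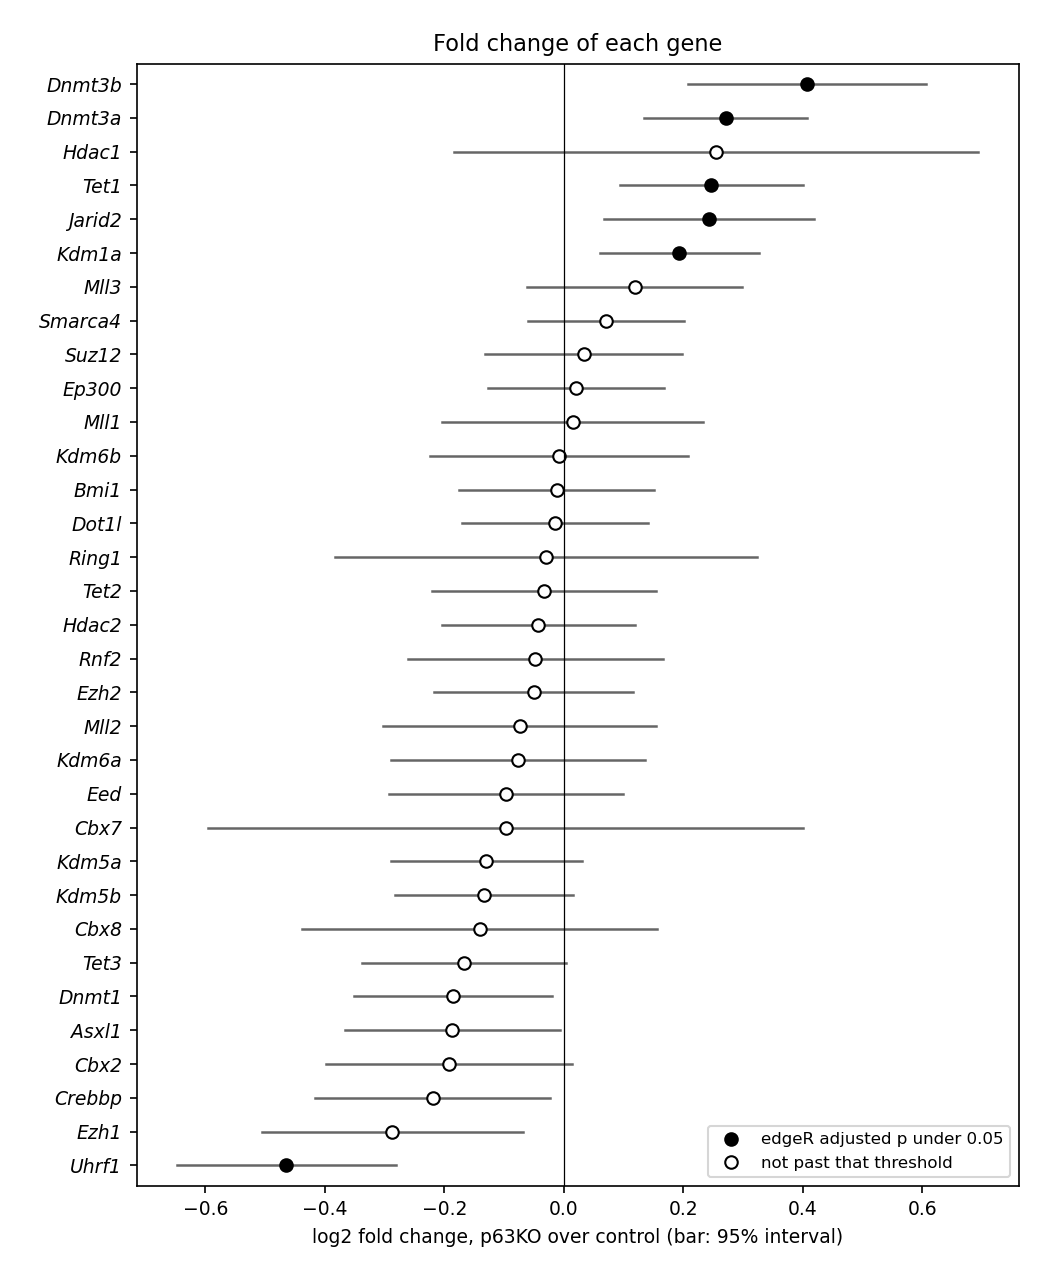
Log2 fold change of each gene, p63KO over control, with its 95% interval from edgeR; filled points passed an adjusted p of 0.05 and open points did not. The 33 genes are ordered by fold change, with Dnmt3b at 0.41 on top and Uhrf1 at -0.46 at the bottom.

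Other genes of the same complexes were read beside these 33 from a list of 174, of which 170 had a row and 166 were tested. Of these, 35 changed (21.1%, against 29.6% of all genes tested): 15 rose and 20 fell. With each library left out in turn, 25 of the 35 calls held. The shares of each role given below stand against the 15.3% of all genes tested that were higher and the 14.3% that were lower; most roles hold few genes, and no role was tested as a set. None of the 7 other PRC2 genes passed edgeR's test, with 0 at an unadjusted p under 0.05 and 0 by DESeq2 or limma-voom.

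In PRC1, 4 of 20 genes fell (20%) and 1 rose (5.0%). Phc2, a polyhomeotic subunit, fell to 226 ± 11.7 CPM in p63KO, against 281 ± 17.3 CPM in controls (log2 fold change -0.32, edgeR adjusted p = 0.0068), and E2f6, a repressor in a PRC1 variant, had a log2 fold change of -0.35 (edgeR adjusted p = 0.0071). Scmh1 (-0.37), Scml2 (-0.32) and Rybp (0.34), all PRC1-associated, lost their calls without some libraries, with edgeR adjusted p between 0.053 and 0.072, 0.070 and 0.13, and 0.083 and 0.14. Scml2 lost it without any 1 of the 6 libraries, Scmh1 without p63KO replicates 2 or 3 or control replicates 1 or 2, and Rybp without p63KO or control replicates 2 or 3. In PR-DUB, 2 of 7 genes fell (28.6%), Mbd6 (-0.34) and Foxk1 (-0.33).

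Of 27 other histone methyltransferase genes and their partners, 1 rose (3.70%) and 3 fell (11.1%). Mllt3, a reader that works with DOT1L, rose to 202 ± 18.2 CPM in p63KO, against 154 ± 8.86 CPM in controls (log2 fold change 0.40, edgeR adjusted p = 0.0043). Paxip1, a subunit of the MLL3 and MLL4 complexes, fell to 88.9 ± 2.46 CPM in p63KO, against 108 ± 3.60 CPM in controls. Suv39h1, an H3K9 methyltransferase, had a log2 fold change of -0.21 and Smyd3 one of -0.46. Suv39h1 lost its call without any library other than p63KO replicate 2, and Smyd3 without p63KO replicates 1 or 3 or control replicates 1 or 2.

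Histone demethylases and their partners rose in 5 of 16 cases by edgeR, DESeq2 and limma-voom (31.25%, against 15.3% of all genes tested), and 0 fell, also at an unadjusted p under 0.05 (14.3% of all genes fell). Jhdm1d, also named Kdm7a, encodes a demethylase of repressive H3K9 and H3K27 methylation and had 59.0, 61.4 and 64.3 CPM in p63KO and 33.0, 34.0 and 27.3 CPM in controls. It was higher in every p63KO library, with a log2 fold change of 0.97 (SE 0.09, edgeR adjusted p = 6.0e-05). Rcor2, a corepressor that binds KDM1A, had 311, 283 and 269 CPM in p63KO and 183, 187 and 152 CPM in controls (0.73, edgeR adjusted p = 0.00029). Kdm4b (0.36), Kdm4c (0.42) and Phf8 (0.32), which encode demethylases of H3K9 and related sites, rose by less. Kdm4c lost its call without p63KO replicate 3 (edgeR adjusted p = 0.055).

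Of 9 other genes of DNA methylation, which include methyl-CpG readers and the helicase gene Hells, 2 fell (22.2%, against 14.3% of all genes tested), both of them readers. Mbd2 fell to 51.5 ± 2.80 CPM in p63KO, against 71.7 ± 2.88 CPM in controls (log2 fold change -0.48, edgeR adjusted p = 0.00073), and Zbtb38 to 14.2 ± 1.58 CPM in p63KO, against 23.9 ± 3.51 CPM in controls (-0.75). Of 8 other genes of DNA demethylation 2 rose (25.0%). Gadd45g, a stress-responsive gene linked to active demethylation, had 36.7, 37.5 and 31.0 CPM in p63KO and 11.8, 13.9 and 8.36 CPM in controls, a log2 fold change of 1.62 (SE 0.18, edgeR adjusted p = 0.00012). Cxxc5, a CXXC zinc-finger gene, had one of 0.21 and lost its call without any library other than p63KO replicate 3. The glycosylase gene Tdg had 2 counts in all p63KO libraries and 5 in all controls and was not tested. Near-identical copies cover 95.2% of its longest transcript, so its level cannot be read from these counts.

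Deacetylases and their corepressors fell in 4 of 27 cases (14.8%), close to the 14.3% of all genes tested that fell, and rose in 1 (3.70%, against 15.3%). Hdac8, a class I deacetylase gene, had 16.6, 16.3 and 17.5 CPM in p63KO and 30.6, 39.9 and 30.0 CPM in control libraries. Every p63KO library was below every control, with a log2 fold change of -0.99 (SE 0.13, edgeR adjusted p = 0.00036). Mta2, a subunit of the NuRD complex, had 236, 245 and 228 CPM in p63KO and 339, 351 and 344 CPM in controls (-0.54, edgeR adjusted p = 8.4e-05). Hdac6, the cytoplasmic tubulin deacetylase gene, fell by 0.45 on the log2 scale (edgeR adjusted p = 0.00048). Hdac9, a class II deacetylase gene, rose and had 16.7, 13.0 and 18.5 CPM in p63KO and 5.59, 9.81 and 6.24 CPM in controls (1.15, edgeR adjusted p = 0.0048).

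Of 14 other acetyltransferase genes, 1 rose (7.14%) and 2 fell (14.3%, as over all genes tested). Kat2b (0.40) rose and Myst1 (-0.42) and Myst4 (-0.29), also named Kat8 and Kat6b, fell. The call of Kat2b was lost without p63KO replicates 2 or 3 or control replicates 1 or 2. Of 31 other remodeller genes 4 rose (12.9%) and 3 fell (9.68%). Chd7, an ATP-dependent remodeller gene, rose to 279 ± 7.29 CPM in p63KO, against 139 ± 3.59 CPM in controls (log2 fold change 1.01, SE 0.06, edgeR adjusted p = 2.2e-06). Smarca1 (0.69) and Dpf1 (0.87) also rose, while the SWI/SNF genes Smarca2 (-0.42), Arid1b (-0.36) and Phf10 (-0.25) fell. Dpf1 lost its call without p63KO replicates 1 or 2 or control replicates 1 or 3, and Phf10 without any p63KO library or control replicate 2. Actl6b, the neuronal SWI/SNF subunit gene, had 69 counts over the p63KO libraries and 1 count over the controls, a depth-scaled ratio of 84.9 with an exact 95% interval of 14.7 to 3401 that covers counting error only. Dpf1 and Actl6b are known from neurons, and the part of neuronal or neuroendocrine cells in their levels was not tested.

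**Figure D4:**
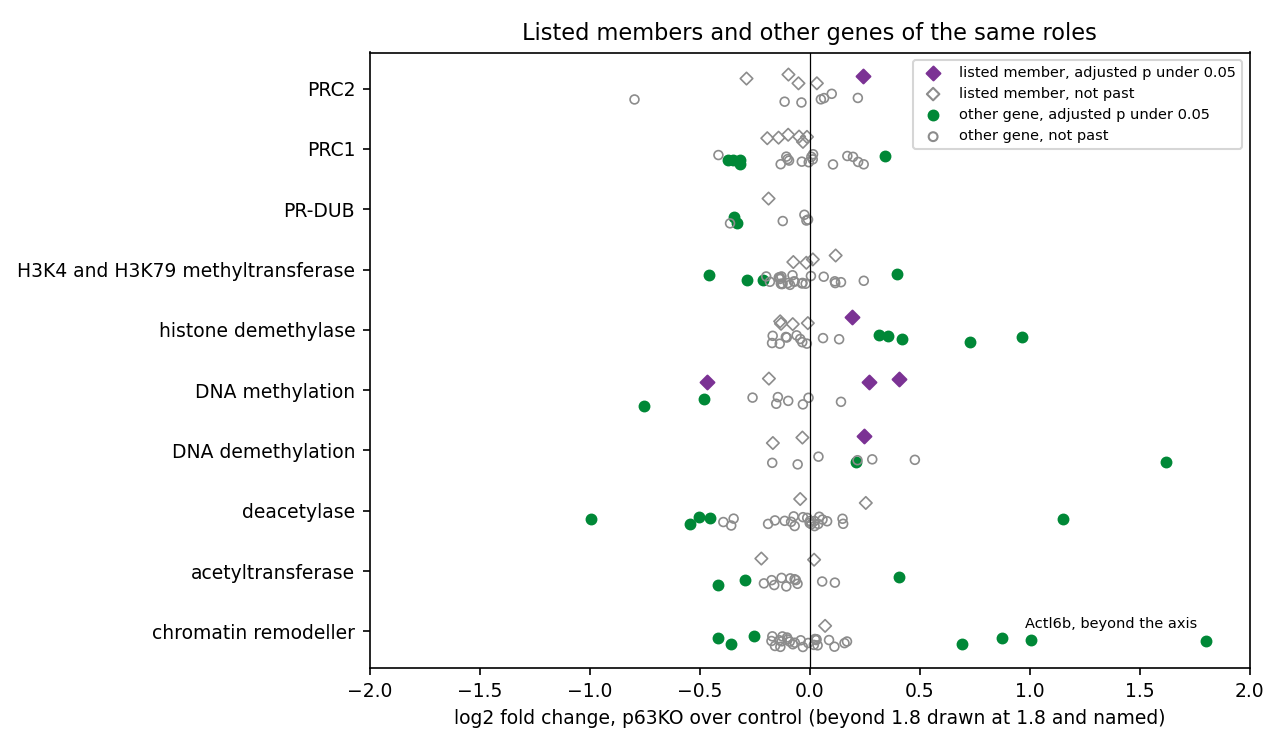
Log2 fold change, p63KO over control, of the 33 genes (diamonds) and of 166 other tested genes of the same roles (circles); filled symbols passed an adjusted p of 0.05. The 33 genes lie within -0.46 and 0.41, while other genes reach further in both directions, such as Hdac8 at -0.99 and Gadd45g at 1.62.

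Genes that these systems are known to hold silent in somatic cells were read as well. Of 20 germline genes whose promoters are silenced by DNA methylation, 8 passed the filter on low counts. Of those 8, Tdrkh (log2 fold change 1.41, edgeR adjusted p = 0.00014) and Brdt (1.29, edgeR adjusted p = 0.021) rose and Tdrd1 (-0.65, edgeR adjusted p = 0.0049) fell. Over all genes tested, 15.3% were higher and 14.3% lower. Of the 8 genes, 5 had log2 fold changes below 0 and 3 above 0, with a median of -0.52. The list is small and was not tested as a set. Brdt lost its call without p63KO replicates 1 or 3 or control replicates 1 or 2. The 20 genes together summed to 30.3 to 36.3 CPM in p63KO and 29.5 to 32.4 CPM in control libraries, and Tex101, Asz1, Hormad1 and Mov10l1 were at 0 in all 6. At the Polycomb-regulated Ink4 and Arf locus, Cdkn2b, a cell cycle inhibitor gene, had 0.236, 0.416 and 0.371 CPM in p63KO and 2.36, 0.817 and 2.59 CPM in controls. Its fall had a log2 fold change of -2.48 (SE 0.54) with an edgeR adjusted p = 0.0072, and it rests on 15 counts over the p63KO libraries and 104 over the controls. Cdkn2a had 3 counts over the p63KO libraries and 9 over the controls and was not tested.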

How the data were processed

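RNA from isolated esophageal epithelium was sequenced after TruSeq library preparation, per the labels' protocols. The table that the authors deposited gives unnormalised counts, whole numbers, under a symbol for each gene; the submitters' processing notes name bcl2fastq 1.8.4, TopHat2 2.1.0, DESeq2 and build mm9. The sources used here do not give the read counter, its strand setting or whether reads were single or paired. Groups came from the sample titles. Here p63KO was compared with control libraries by edgeR 4.0.16 (R 4.3.3) with TMM scaling, filterByExpr (minimum count 10, minimum total 15), a quasi-likelihood test over all 13849 genes that passed and Benjamini-Hochberg adjustment at 0.05; CPM values are TMM-scaled. The SE of a log2 fold change was derived from the test's F value. Total counts of 13335328 to 20093838 per library limit precision for genes of few counts, and intervals on count ratios cover counting error only.

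The genes, the lists and the tests were chosen with earlier results of these data known, so no list count is independent support. Every listed gene has a value; values per library are given for those past the test and for the lowest p of a class with none, and for other roles up to 3 genes past the test or all in a count of 5 or fewer. Per-library values of further genes were added after their values were seen. Replicates within a group differed by more than sampling noise. Same-numbered libraries had correlations of deviations of 0.20, 0.27 and 0.05, against -0.24 to 0.04 between libraries of different numbers. The main fit did not take the numbers as pairs, and a fit with them as a block is given below. Alternatives were other scalings, DESeq2 1.42.0, limma 3.58.1 (voom), other filters, the replicate block, a threshold of 0.01 and leaving out each library. Of the other deacetylase genes counted, 1 is not reported here by name.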

Additional observations from a re-analysis of the deposited data

How the results depend on the processing

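The count of changed genes among the 33 was 6 under every other scaling, tool and the filter of 1 CPM in 3 libraries, and 5 with no filter. It was 3 at an adjusted p of 0.01, with 2580 of all genes. Leaving out each library gave 3 to 6; the lowest count, 3 without control replicate 1, held Dnmt3a, Dnmt3b and Uhrf1. With the replicate number as a block it was 11, 5 higher and 6 lower, adding Ezh1 (edgeR adjusted p = 0.033), Asxl1 (0.021), Cbx2 (0.030), Crebbp (0.035) and Dnmt1 (0.026), with 4778 of all genes and 46 of the companion genes. The correlations alone are no more than a hint of pairing: each library correlated best with its own number, but 1 of the 3 correlations was under 0.1. The fit with the block called more of all genes tested than the main fit did (4778 against 4098). Whether same-numbered libraries were paired was not tested. Over all these alternatives, 3 of the 33 genes were called in each, 22 in none and 8 changed sides, and no call reversed. The median log2 fold change of the 33 lay between -0.07 and -0.01. Companion genes changed in 27 to 34 cases with a library left out. The largest SEs among the 33 were those of Cbx7, Hdac1 and Ring1, at 0.22, 0.19 and 0.16. Cbx8, with fewer counts than Hdac1 or Ring1, had an SE of 0.13, so these SEs do not follow depth alone. With the replicate number as a block, the SEs of Cbx7, Hdac1 and Ring1 were 0.19, 0.09 and 0.09, and that of Cbx8 was 0.13.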
